A study of Mus musculus with 2 samples.

Results

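The Hox genes of mouse gastrocnemius muscle, with the limb identity genes Pitx1, Tbx4 and Tbx5, were examined in total RNA-seq libraries. Members were taken by name: every gene with a protein_coding transcript whose symbol is Hoxa, Hoxb, Hoxc or Hoxd followed by a number, plus the 3 limb genes. This gave 42 members, 39 of them Hox genes, out of 21901 genes with a protein_coding transcript and 55536 annotated genes in all. The samples form 1 group of 2 libraries from gastrocnemius tissue of female B6CASTF1/J mice, which are F1 hybrids of the C57BL/6J and CAST/EiJ strains, with no transgene, treatment or second genotype in the labels. The labels' description gives an age of 18 to 20 months, while their age field holds no age. Input was 300 ng of total RNA a library, spiked with ERCC standards, synthetic RNAs of known amount, and the library type was stranded and ribosome-reduced. The labels call the libraries biological replicates 1 and 2 and give them separate tissue sample identifiers and a shared donor identifier. Whether that identifier names 1 animal or the strain was not settled, so the spread between the libraries may in part be technical. With 1 group there is no condition to compare and no test was made: every ratio below is 1 library against the other, replicate 2 over replicate 1.

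Hox genes encode transcription factors that bind DNA through a homeodomain, and they lie in 4 clusters in which gene order follows the order of their expression along the body and limb axes. Members of a numbered paralog group descend from 1 ancestral gene. In the embryonic limb, the groups from 9 upward pattern the segments from girdle to digits, Pitx1 and Tbx4 mark the hindlimb and Tbx5 marks the forelimb. Connective tissue cells and muscle precursors of the adult are known to keep part of this positional code. The gastrocnemius is a hindlimb muscle of the calf.

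The libraries held 38654555 and 43722892 expected counts in genes, of which the members took 0.0173% and 0.0129%. Muscle fibre genes identified the tissue: 10 of 10 passed 1 TPM (a level scaled for transcript length and library size) in both libraries, and Acta1, the actin of the muscle fibre, was at 21820 and 23050 TPM. Between the libraries, 350 of the 12969 genes whose counts in the pair of libraries summed to 50 or more were at least 2-fold higher in replicate 2, and 252 were at least 2-fold lower. Scaling by spike-ins in place of TMM, the trimmed mean scaling of edgeR, moved the median log2 ratio of all genes to -0.22, so ratios below are relative to the TMM scale.

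The DNA that encodes the third helix of the homeodomain, the part that lies in the major groove of DNA, shows how close the expressed paralogs are to each other. The stretches below are the codons for homeodomain residues 42 to 60, read from GENCODE M21 transcripts (mm10, the C57BL/6J reference), 5′ to 3′ on the coding strand. Capitals mark the bases that differ from Hoxc10, the most abundant member, at the same position.
Hoxc10, chr15:102970971-102971027, plus strand: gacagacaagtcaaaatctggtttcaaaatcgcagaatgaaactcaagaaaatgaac
Hoxa10, chr6:52232554-52232610, minus strand: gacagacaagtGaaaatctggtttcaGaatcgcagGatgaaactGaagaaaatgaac
Hoxd10, chr2:74694264-74694320, plus strand: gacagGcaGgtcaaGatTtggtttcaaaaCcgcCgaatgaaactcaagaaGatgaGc
Hoxc9, chr15:102984053-102984109, plus strand: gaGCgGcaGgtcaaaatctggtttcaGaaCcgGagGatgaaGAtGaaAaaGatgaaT
Hoxc11, chr15:102956603-102956659, plus strand: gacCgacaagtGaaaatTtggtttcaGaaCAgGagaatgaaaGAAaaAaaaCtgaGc
Hoxa11, chr6:52243402-52243458, minus strand: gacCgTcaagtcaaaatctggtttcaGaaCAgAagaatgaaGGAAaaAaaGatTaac
Hoxd8, chr2:74706648-74706704, plus strand: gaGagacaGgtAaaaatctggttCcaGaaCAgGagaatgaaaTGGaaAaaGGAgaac
Hoxa13, chr6:52258928-52258984, minus strand: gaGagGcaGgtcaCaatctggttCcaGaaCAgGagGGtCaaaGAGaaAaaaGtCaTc
Over these 57 bases Hoxa10 differed from Hoxc10 at 4 positions and Hoxd10 at 8, while Hoxa13 differed at 19. Over the full homeobox of 180 bases, Hoxa10 and Hoxd10 shared 145 and 149 bases with Hoxc10, and Hoxd8 shared 109. A single homeobox was found in all 39 Hox members and in Pitx1, whose homeobox shared 75 of 180 bases with that of Hoxc10. Tbx4 and Tbx5 carry a T-box, another DNA-binding domain, and have no homeobox.

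Most of the Hox signal came from paralog groups 5 to 11 of 3 clusters. At least 1 TPM in both libraries was reached by 13 of the 42 members, beside 45.7% of all genes with a protein_coding transcript. All 13 were Hox genes: 5 of 11 Hoxa genes, 5 of 9 Hoxc genes, 3 of 9 Hoxd genes and 0 of 10 Hoxb genes. Another 2 members reached 1 TPM in replicate 1 alone, 21 had counts but stayed below 1 TPM in both libraries, and 6 had no counts in either. These counts used RSEM levels, and by kallisto, the other quantification, 18 members reached 1 TPM in both libraries. Summed over the 39 Hox genes, the level was 118 TPM in replicate 1 and 89.3 TPM in replicate 2. The Hoxc cluster held 48.7% ± 4.3 of this sum (SD, n = 2), the Hoxd cluster 29.0% ± 1.8, the Hoxa cluster 21.2% ± 2.2 and the Hoxb cluster 1.06% ± 0.32. These are levels of whole tissue, in which fewer cells of a type and less RNA per cell cannot be told apart.

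**Figure D1:**
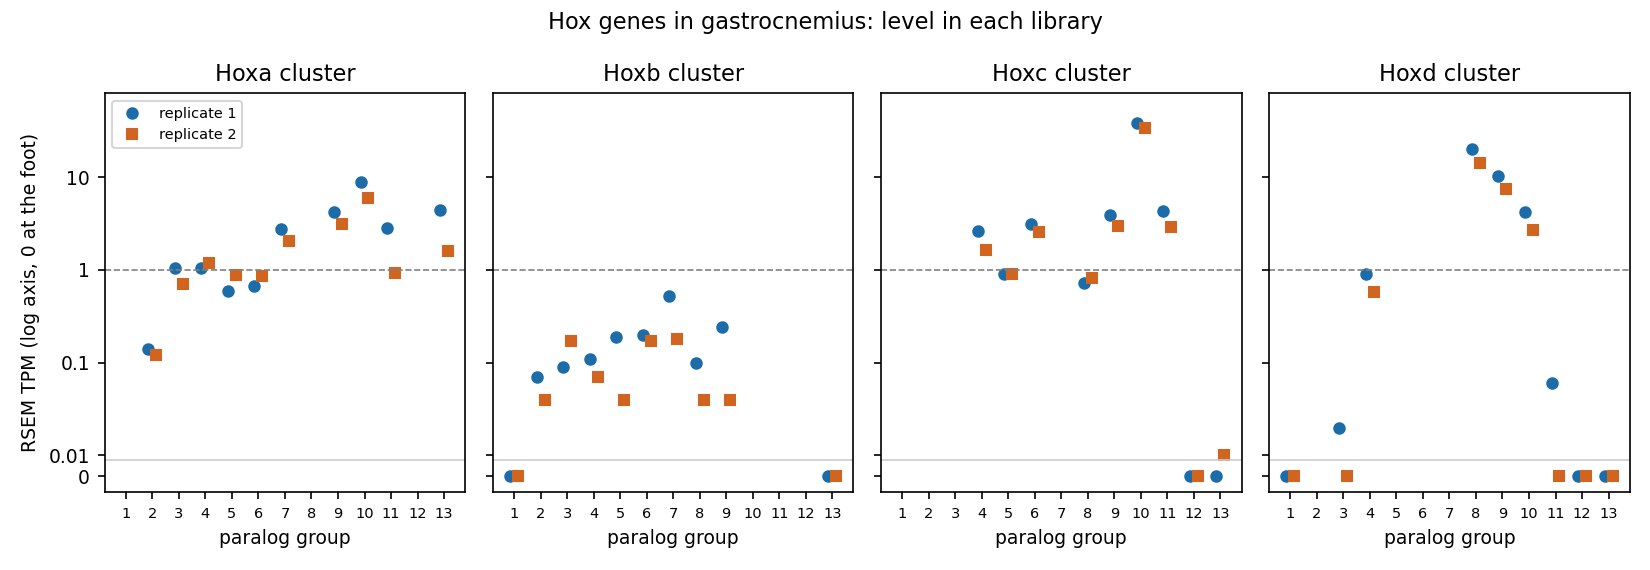
RSEM TPM (log axis, values of 0 drawn at the foot) of Hox genes against their paralog group, 1 panel a cluster, with circles for replicate 1 and squares for replicate 2; the dashed line is 1 TPM. Hoxc10 is highest at 38.3 and 34.4 TPM, all 10 Hoxb genes stay below the line, and Hoxd levels drop between group 10 and group 11.

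By position in the clusters, groups 9 to 11 held 66.7% ± 1.5 of the summed Hox TPM (SD, n = 2), groups 5 to 8 held 25.4% ± 0.1, groups 1 to 4 held 5.16% ± 0.08, and groups 12 and 13 held 2.79% ± 1.40. Group 10 alone held 45.9% ± 3.3, with Hoxa10, Hoxc10 and Hoxd10 all above 1 TPM in both libraries. Group 8 followed with 17.3% ± 0.7, nearly all of it from Hoxd8, and group 9 with 15.5% ± 0.5. The share of groups 12 and 13 was 3.78% in replicate 1 and 1.80% in replicate 2 and came from Hoxa13 almost alone.

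Hoxc10, a gene known for its restriction to the hind part of the body and the hindlimb, lies at chr15:102966796-102971893 on the plus strand and has 1 annotated transcript, which is protein_coding. It was at 38.3 TPM in replicate 1 (2007 counts) and 34.4 TPM in replicate 2 (2040 counts). Its scaled ratio was 0.996-fold, with a 95% counting interval from 0.936 to 1.06. Of the counts in the Hoxc cluster, Hoxc10 took 69.6% in replicate 1 (Wilson 95% interval 67.9 to 71.3) and 73.6% in replicate 2 (72.0 to 75.3). Intervals here and below cover counting error only and leave out variation between samples and library preparations. They may be too narrow even for counting error, because PCR copies cannot be recognised without molecular identifiers. Its lower value was above the highest value of any other member, the 20.2 TPM of Hoxd8 in replicate 1.

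Its neighbours in the Hoxc cluster were lower by about an order of magnitude. Hoxc11, on its 5′ side, was at 4.37 and 2.92 TPM, and Hoxc9, on its 3′ side, was at 3.90 and 2.96 TPM. Hoxc6 was at 3.15 and 2.55 TPM. Hoxc4, the 3′ end of the cluster, was at 2.66 and 1.65 TPM. All 4 were lower in replicate 2 in TPM, and Hoxc6 and Hoxc9 had counting intervals of their scaled ratios that included 1. Hoxc5 (0.91 TPM in both libraries) and Hoxc8 (0.72 and 0.82 TPM) lay just under 1 TPM. Hoxc12 had no counts and Hoxc13 had 0 and 1, so the coding genes of the cluster went from 1 TPM or more to at most 1 count across the 15817 bases between Hoxc11 and Hoxc12. Exons of Hoxc10 and of Hoxc5, whose short noncoding transcript Hoxc5-202 starts in the Hoxc10 locus, share 166 bases on the same strand, and the counts of such shared bases are split by the authors' model.

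In the Hoxd cluster 3 adjacent genes held almost all of the signal. Hoxd8 (chr2:74704615-74707933, plus strand) was at 20.2 and 14.1 TPM, with 1386 and 1095 counts. Hoxd9, 1 of the group 9 genes that act with Hoxa9 in the upper limb segment, was at 10.4 and 7.44 TPM. Hoxd10 was at 4.20 and 2.67 TPM. The order Hoxd8, Hoxd9, Hoxd10 was the same in both libraries, and the ranges of the 3 genes did not overlap. These genes took 97.7% of the Hoxd counts in replicate 1 and 98.4% in replicate 2. On the 5′ side, Hoxd11 had 1.73 and 0 counts, and Hoxd12 and Hoxd13, which pattern the digits, had none in either library. On the 3′ side, Hoxd1 had none, Hoxd3 had 1.84 and 0 counts, and Hoxd4 was at 0.91 and 0.58 TPM. A count of 0 allows up to 3 counts, which is 0.0776 CPM (counts scaled to library size) in replicate 1 and 0.0686 in replicate 2.

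Promoter sequence is shown on both sides of this step, for Hoxd11 and Hoxd10, whose gene bodies are 4907 bases apart. Each window is the 250 bases before a RefSeq transcript start (GRCm38.p6), 5′ to 3′ on the gene's strand, and capitals mark matches of CCAAT or TGATNNAT, the latter a short form of the joint Pbx and Hox motif, on either strand.
Hoxd11, chr2:74682073-74682322, plus strand: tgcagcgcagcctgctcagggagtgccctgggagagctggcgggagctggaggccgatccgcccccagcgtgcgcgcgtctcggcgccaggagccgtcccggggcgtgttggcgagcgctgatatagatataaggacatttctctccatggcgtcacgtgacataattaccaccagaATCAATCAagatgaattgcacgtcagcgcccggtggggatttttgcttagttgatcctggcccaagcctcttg
Hoxd10, chr2:74691641-74691890, plus strand: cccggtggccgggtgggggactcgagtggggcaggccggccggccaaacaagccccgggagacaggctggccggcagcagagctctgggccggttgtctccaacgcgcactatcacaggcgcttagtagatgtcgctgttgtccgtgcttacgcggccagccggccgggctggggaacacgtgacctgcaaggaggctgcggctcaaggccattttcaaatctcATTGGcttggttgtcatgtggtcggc
The Hoxd11 window held 1 match of TGATNNAT, on the strand opposite to the gene, and the Hoxd10 window held 1 match of CCAAT, also on the opposite strand. Neither held TATAAA. Of all 32851 windows in the table, 7.68% held TGATNNAT, 33.8% CCAAT and 12.4% TATAAA, on either strand. The ratio of observed to expected CpG was 0.88 for Hoxd11 and 0.75 for Hoxd10, against a median of 0.37 over all windows, so both of these windows were richer in CpG than the median window. The table holds another window for Hoxd11, before an upstream start at position 74679557, with a CpG ratio of 0.16 and none of the 3 motifs. The table held windows for 23 members, with a median CpG ratio of 0.69 over their 25 windows. Matches are descriptions of the letters and are not evidence of binding.

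The Hoxa cluster was expressed along most of its length, and it was the only cluster whose group 13 gene reached 1 TPM in both libraries. Hoxa10 was its highest gene, at 8.98 and 6.01 TPM, a range that overlapped that of Hoxd9. Hoxa9 was at 4.20 and 3.16 TPM, Hoxa7 at 2.80 and 2.06 TPM, and Hoxa4 at 1.06 and 1.20 TPM. Hoxa3, Hoxa5 and Hoxa6 lay between 0.60 and 1.05 TPM, and Hoxa2 was at 0.14 and 0.12 TPM. Hoxa11 (chr6:52242106-52245810, minus strand), the paralog of the lower limb segment, was at 2.86 TPM in replicate 1 and 0.92 in replicate 2. Hoxa13 (chr6:52257694-52260880, minus strand), a gene of the hand and foot field, was at 4.47 and 1.60 TPM. In TPM, replicate 1 was the higher library for 12 of the 13 members at or above 1 TPM, as it was for 67.8% of all genes with enough counts, and for Hoxa11 and Hoxa13 by the widest margin of the 20 members with such counts.

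Among members with summed counts of 50 or more, those at the 5′ end of the Hoxa cluster differed most between the libraries. Hoxa11 fell from 179 counts to 65, which was 2.81-fold lower in replicate 2 as a scaled ratio of counts, without the prior count of the log2 values below (95% counting interval 2.11 to 3.79). Hoxa13 fell from 286 counts to 116, 2.52-fold lower (2.02 to 3.15). The next gene, Hoxa10, whose body ends 1251 bases from that of Hoxa11, went from 437 to 320 counts, a ratio of 1.39-fold lower (1.20 to 1.62), and its interval did not overlap those of Hoxa11 and Hoxa13. Together Hoxa11 and Hoxa13 held 32.5% of the Hoxa counts in replicate 1 (Wilson 95% interval 30.1 to 34.97) and 18.4% in replicate 2 (16.1 to 20.9). The other 9 genes of the cluster were 1.23-fold lower as a sum (1.12 to 1.35). Hoxa11 and Hoxa13 were pooled after their values were seen, so this contrast is a description only. Of all genes with enough counts, 0.725% had a ratio as low as Hoxa11 and 0.894% as low as Hoxa13. The ratio of 1 library to another says nothing of a condition.

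Some genes without a protein_coding transcript, between and beside Hoxa11 and Hoxa13, had ratios of like size. Hoxa11os, which is transcribed from the opposite strand of the Hoxa11 locus, had 129 and 43.4 counts (4.10 and 1.28 TPM) and was 3.06-fold lower (2.15 to 4.43). Its exons overlap 800 of the 2287 exon bases of Hoxa11, and whether the counting used strand is not given in the sources used here, so reads of the overlap may be divided between them. No such overlap was annotated for Hoxa13. An unnamed transcript next to Hoxa13, 9530018H14Rik (chr6:52256218-52257460), had 30 and 11 counts (2.78-fold lower, 1.36 to 6.16). It is annotated as TEC and is not in the list of noncoding genes given below. It lies on the minus strand, as Hoxa13 does, just past the 3′ end of Hoxa13. Whether its reads belong to Hoxa13 transcripts was not tested. Hottip, a long noncoding RNA known to act on the 5′ Hoxa genes, had 3.35 and 1.07 counts. In the Hoxc cluster, Hotair, a long noncoding RNA from between Hoxc11 and Hoxc12, had 17 and 7 counts, with an interval from 0.977-fold to 7.07-fold lower.

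The starts of the pair of genes are shown as the Hoxd windows were, with the same motifs in capitals.
Hoxa11, chr6:52245811-52246060, minus strand: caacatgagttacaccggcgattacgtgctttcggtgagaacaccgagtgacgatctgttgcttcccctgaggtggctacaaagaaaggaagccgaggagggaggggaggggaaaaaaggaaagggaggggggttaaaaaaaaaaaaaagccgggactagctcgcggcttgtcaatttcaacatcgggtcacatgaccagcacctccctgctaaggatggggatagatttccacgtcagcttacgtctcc
Hoxa13, chr6:52260881-52261130, minus strand: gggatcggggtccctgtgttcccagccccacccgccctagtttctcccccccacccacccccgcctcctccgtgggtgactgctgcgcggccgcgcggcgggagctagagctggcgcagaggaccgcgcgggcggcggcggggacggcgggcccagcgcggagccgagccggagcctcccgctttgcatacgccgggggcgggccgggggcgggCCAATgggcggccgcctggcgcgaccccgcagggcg
In the Hoxa11 window none of the 3 motifs was found, and the CpG ratio was 0.79. Of its bases, 98 lie in annotated exons of Hoxa11os or Gm28032. The Hoxa13 window held 1 match of CCAAT on the gene's strand and had a CpG ratio of 0.88.

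**Figure D2:**
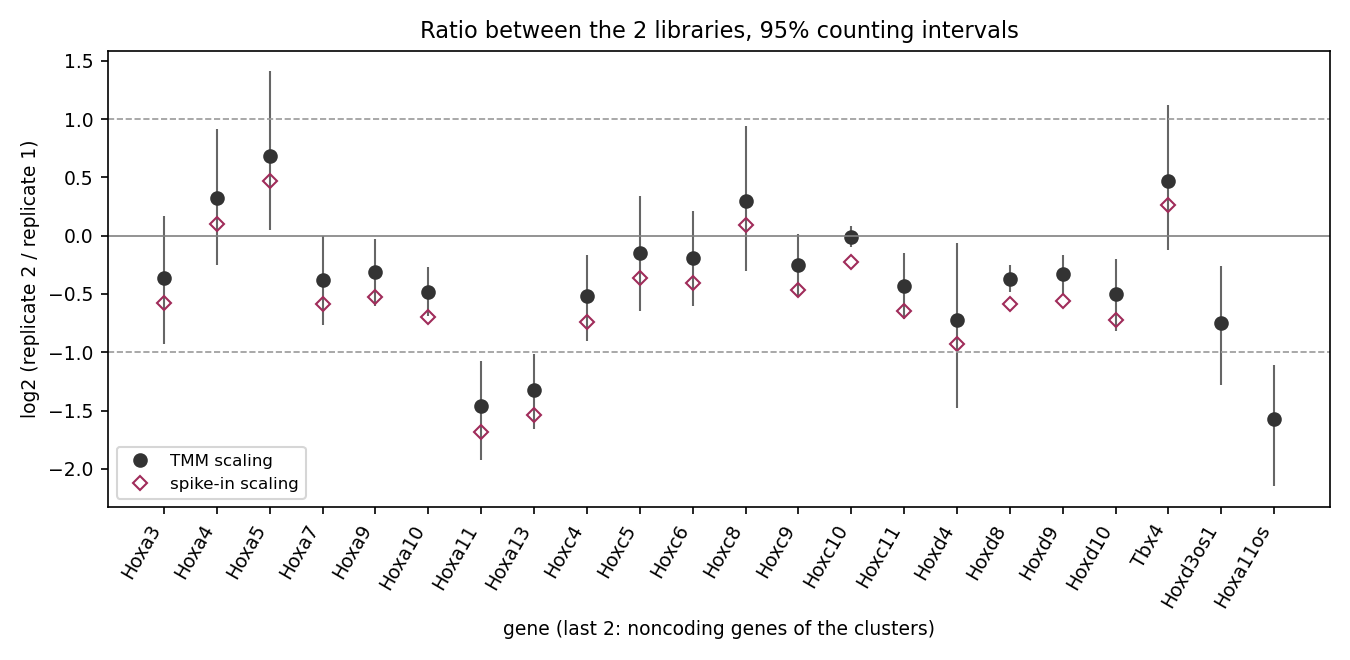
Log2 ratio of replicate 2 over replicate 1 for the 20 members whose counts summed to 50 or more and for Hoxd3os1 and Hoxa11os; filled points are TMM-scaled, lines are 95% counting intervals, open diamonds are scaled by spike-in totals (members only), and dashed lines mark 2-fold. Hoxa11 (-1.46), Hoxa13 (-1.32) and Hoxa11os (-1.57) lie below the lower dashed line, and Hoxc10 lies at -0.01.

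Summed counts of 50 or more were reached by 20 of the 42 members. Of these 20, 2 were at least 2-fold lower in replicate 2, beside 1.94% of the 12969 genes with that count, and 0 were at least 2-fold higher, beside 2.70%. Ratios were below 0 for 16 members and above 0 for 4, with a median of -0.35, while 50.2% of all genes were below 0. The 4 above 0 were Hoxa5 (0.68), Tbx4 (0.47), Hoxa4 (0.32) and Hoxc8 (0.30), and only the interval of Hoxa5 stayed above 1-fold (1.03 to 2.65). All 4 stayed above 0 under spike-in scaling. By cluster, summed Hoxc counts differed least, at 2882 and 2770 (1.06-fold lower, 1.01 to 1.12), and Hoxd counts were 1.30-fold lower (1.22 to 1.39).

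The Hoxb cluster was nearly silent. Its 10 genes summed to 1.52 TPM in replicate 1 and 0.75 TPM in replicate 2, from 78 and 40 counts. Hoxb7 was the highest, at 0.52 and 0.18 TPM. Hoxb13, which lies apart from the other genes of the cluster, had no counts, and Hoxb1 had none in the RSEM tables. The summed counts were 1.99-fold lower in replicate 2 (1.34 to 2.99), and Hoxb5, Hoxb7 and Hoxb9 made up most of the fall, with 48 of 78 counts in replicate 1 and 13 of 40 in replicate 2. These 3 genes were singled out after their values were seen.

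Of the limb identity genes none reached 1 TPM. Tbx4, the T-box factor of the hindlimb (chr11:85886422-85916097), was at 0.46 and 0.58 TPM, from 39 and 56 counts, and its ratio of 1.41-fold had an interval from 0.918 to 2.17. Tbx5, its forelimb counterpart (chr5:119832668-119885219), was at 0.03 and 0.04 TPM, from 1 and 5 counts. Tbx4 was above Tbx5 in both libraries, and the ranges did not overlap. Pitx1, the homeodomain factor upstream of Tbx4 in the hindlimb (chr13:55825051-55836192), was at 0.19 and 0.09 TPM, from 6 and 7 counts. Its TPM was lower in replicate 2 while its count was higher, and its count ratio of 1.14-fold had an interval from 0.329 to 4.12, so no difference was detectable at this depth.

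Both quantifications put Hoxc10 first and Hoxd8 next in each library, but not at the same height. Kallisto put all 13 members at or above 1 TPM higher than RSEM in both libraries, for example Hoxc10 at 48.4 and 40.0 TPM and Hoxd8 at 38.0 and 23.2 TPM. This was not particular to the members: Acta1 was at 45640 and 44530 TPM by kallisto against 21820 and 23050 by RSEM. Some genes went the other way, such as Vwf, at 10.2 and 7.60 TPM by kallisto against 12.4 and 8.17 by RSEM. The share over all genes was not counted. Members that differed more than 2-fold between the tools in both libraries were Pitx1, at 0.396 and 0.213 TPM by kallisto, and Hoxb1, at 0.158 and 0.205 TPM by kallisto against no RSEM counts. Hoxa11 and Hoxa13 fell with kallisto as well, from 4.38 to 1.26 TPM and from 6.97 to 2.59 TPM.

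**Figure D3:**
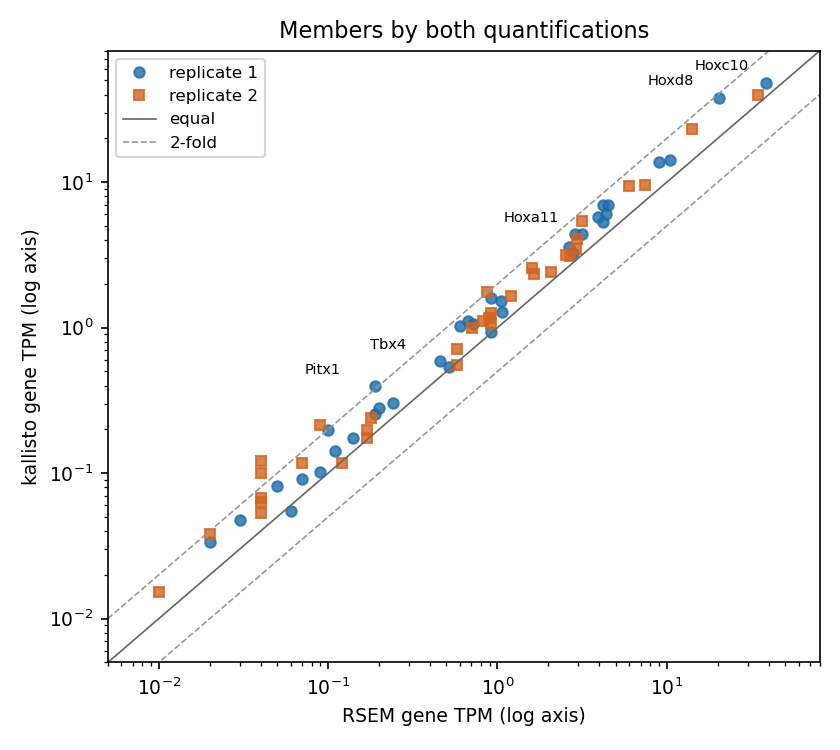
Gene TPM of each member by kallisto (vertical, log axis) against RSEM (horizontal, log axis), circles for replicate 1 and squares for replicate 2; the solid line is equality and dashed lines mark 2-fold, and members at 0 in either tool are not drawn. Most points lie between the solid and the upper dashed line, with Hoxd8 in replicate 1 at 20.2 and 38.0 TPM, and Pitx1 lies above the dashed line in both libraries.

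Transcript models split the members' reads unevenly. Over the 13 members, protein_coding transcripts held 92.0% of the RSEM TPM in replicate 1 and 91.4% in replicate 2, and 5 of the 13 have a single annotated transcript. In Hoxa10 the largest transcript was Hoxa10-203, which is annotated as processed_transcript and held 72.0% of the gene's TPM in replicate 1 and 75.9% in replicate 2. Kallisto gave it 53.8% and 52.1%. It starts at position 52233324, downstream of both coding starts, and shares 1582 of its 1710 bases with the coding transcripts. The split therefore rests on its own 128 bases, on bases found only in the coding transcripts and on splice junctions. On protein_coding transcripts alone, Hoxa10 would be at 2.51 and 1.15 TPM by RSEM. It would then no longer be the highest Hoxa gene, below Hoxa13 (4.47 and 1.60 TPM), Hoxa9 (2.98 and 2.03 TPM) and Hoxa7 (2.79 and 1.80 TPM) in both libraries. This order did not hold by kallisto, where the coding Hoxa10-201 alone was at 4.39 TPM in replicate 1, above the 3.275 TPM of all Hoxa7 transcripts.

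Other members divided among models in ways that the tools did not always share. Hoxa9 had 67.6% ± 4.7 of its TPM on coding transcripts (SD, n = 2) and Hoxc6 66.9% ± 2.0. Hoxc4 was divided between 2 coding transcripts, Hoxc4-201 with 52.3% and 46.7% and Hoxc4-202 with 47.7% and 53.3%. Hoxd8-201 held 85.0% and 80.7% of Hoxd8 by RSEM but 57.0% and 60.5% by kallisto, which gave 33.3% and 25.3% to the short Hoxd8-203. Hoxa7-201 held 79.9% and 61.0% by RSEM and 45.7% and 81.3% by kallisto, so the tools put the libraries in opposite order. For Hoxa11 the tools disagreed on the leading model: the coding Hoxa11-201 had 83.9% and 85.9% by RSEM and 33.1% and 41.1% by kallisto, and all 2098 bases of the noncoding Hoxa11-202 lie in exons of the coding one. The lower level of Hoxa11 in replicate 2 was seen for both transcripts with both tools.

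**Figure D4:**
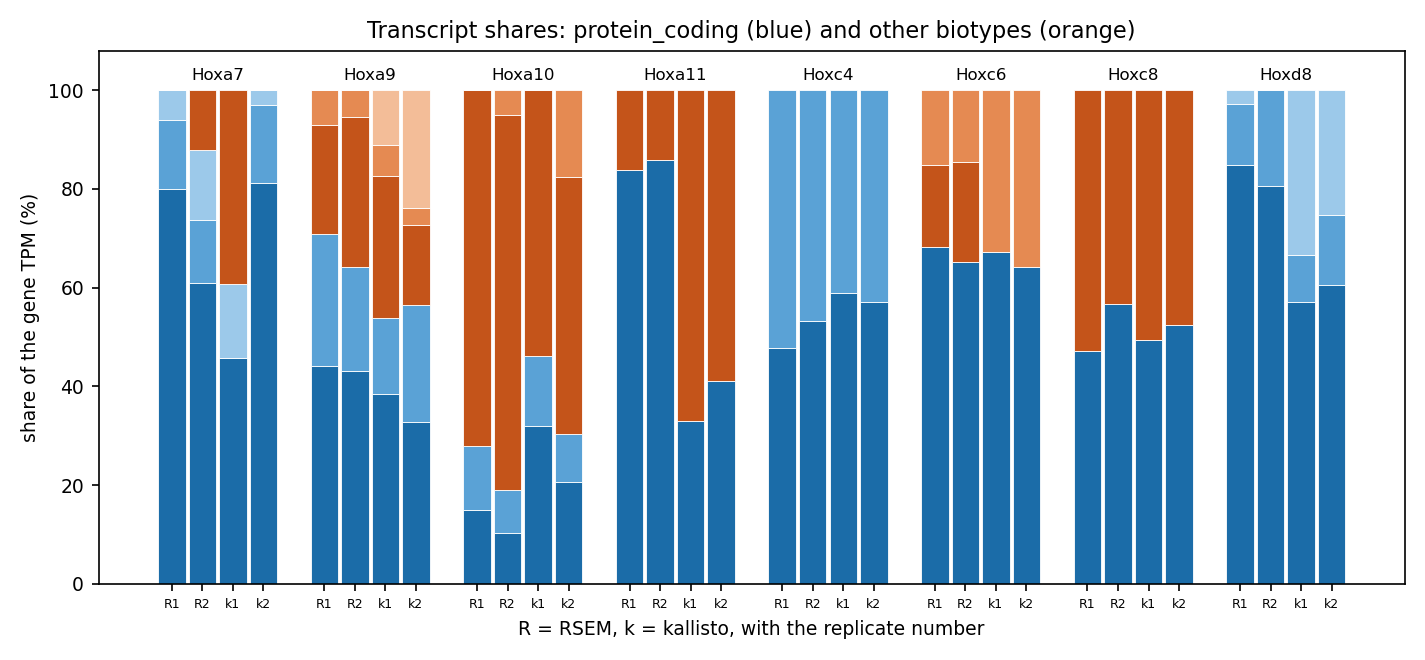
Share of the gene's TPM (%) on each annotated transcript for 8 members with divided models, each with 4 bars: RSEM (R) and kallisto (k) in replicates 1 and 2. Blue shades are protein_coding transcripts and orange shades other biotypes; Hoxa10 is mostly orange in every bar, and Hoxa11 is mostly blue by RSEM and mostly orange by kallisto.

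Other genes of the clusters were mostly without counts or below 1 TPM. Of 16 noncoding genes listed for the clusters, 2 reached 1 TPM in each library: Hoxa11os and Hoxd3os1, an antisense gene whose span covers Hoxd8, with 5.75 and 3.36 TPM. The share over all genes without a protein_coding transcript was not computed, so whether this count is low for such genes was not tested. The 6 microRNA rows, such as Mir196b, had no counts, though precursor rows of this kind are not a measure of mature microRNA in such libraries. The 9 homeobox genes at the cluster borders or in the related ParaHox family, such as Evx1, Evx2 and Cdx2, had no counts either.

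Some partners of Hox proteins on DNA were present. Of 9 cofactor genes, 5 reached 1 TPM in each library, beside 45.7% of all genes with a protein_coding transcript. None of the 7 with enough counts was 2-fold apart. Pknox2 was at 25.9 and 18.8 TPM and Pbx2 at 5.48 and 5.35 TPM, while Pbx4 had no counts. Of 32 Polycomb and Trithorax genes, which maintain Hox genes off or on, 28 reached 1 TPM in each, beside the same 45.7%. By mean TPM they were led by Bmi1 (31.8 and 29.6 TPM), Kmt2d (21.3 and 18.9 TPM) and Kdm6a (20.5 and 14.2 TPM). Their median log2 ratio was -0.07, and 1 of 31 with enough counts, the Polycomb gene Pcgf2, was at least 2-fold apart, at 55 and 26 counts.

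Genes that pattern the limb beside the Hox genes were mixed. Of 35, 11 reached 1 TPM in each library, beside 45.7% of all genes with a protein_coding transcript. The 3 that led were Tbx15 (71.4 and 54.7 TPM), a T-box factor of glycolytic muscle, Lbx1 (33.5 and 27.3 TPM), of migrating limb muscle precursors, and Prrx1 (22.8 and 19.1 TPM), of limb mesenchyme. Of 21 with enough counts, 5 were at least 2-fold higher in replicate 2, beside 2.70% of all genes with enough counts. At least 2-fold lower were 0, beside 1.94%. Both counts use the log2 scale with a prior count of 2. Meox1, with 78 and 39 counts, lay just inside at -0.99, and its plain count ratio was 2.04-fold lower (1.37 to 3.08). Among them, Emx2 went from 12 to 51 counts and Osr2 from 26 to 73. Irx3 went from 61 to 166 counts, and Irx5, its neighbour on chromosome 8, from 0 to 178. Emx2, Osr2, Irx3 and Irx5 went the other way from Hoxa11 and Hoxa13, but the list as a whole did not. Of its 21 genes with enough counts, 10 were above 0 and 11 below, with a median of -0.15.

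Markers of the cells that gastrocnemius tissue could hold differed between the libraries as well, and their part in the Hox ratios was not tested. Tendon markers were below 0 in all 6 with enough counts (median -0.56), with summed levels of 83.7 and 53.3 TPM, and 6 of 8 reached 1 TPM in each. Satellite cell markers were below 0 in 5 of 6 (median -0.54, sums 47.9 and 26.9 TPM), with Myod1 2.76-fold lower, and endothelial markers in 7 of 8 (median -0.65, sums 77.7 and 55.3 TPM). Schwann cell markers were below 0 in 5 of 8 (median -0.45, sums 50.8 and 41.4 TPM). Markers of fibro-adipogenic cells, connective tissue cells of muscle, were above 0 in 11 of 12 (median 0.30, sums 479 and 515 TPM), and Col3a1, Col1a1, Col1a2 and Lum were at least 2-fold higher. Mural cell (sums 163 and 168 TPM), macrophage (32.9 and 27.7 TPM, with Cd68 2.50-fold lower) and muscle fibre markers had medians of -0.08, 0.01 and 0.03. Of 8 bone and cartilage markers, Ibsp had no counts and Bglap, Sp7 and Acan had at most 1, while of the 3 with enough counts (median 1.02) Alpl and Sox9 were at least 2-fold higher and Runx2 was 1.80-fold lower (1.13 to 2.92), and the sums were 4.79 and 10.96 TPM.

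**Figure D5:**
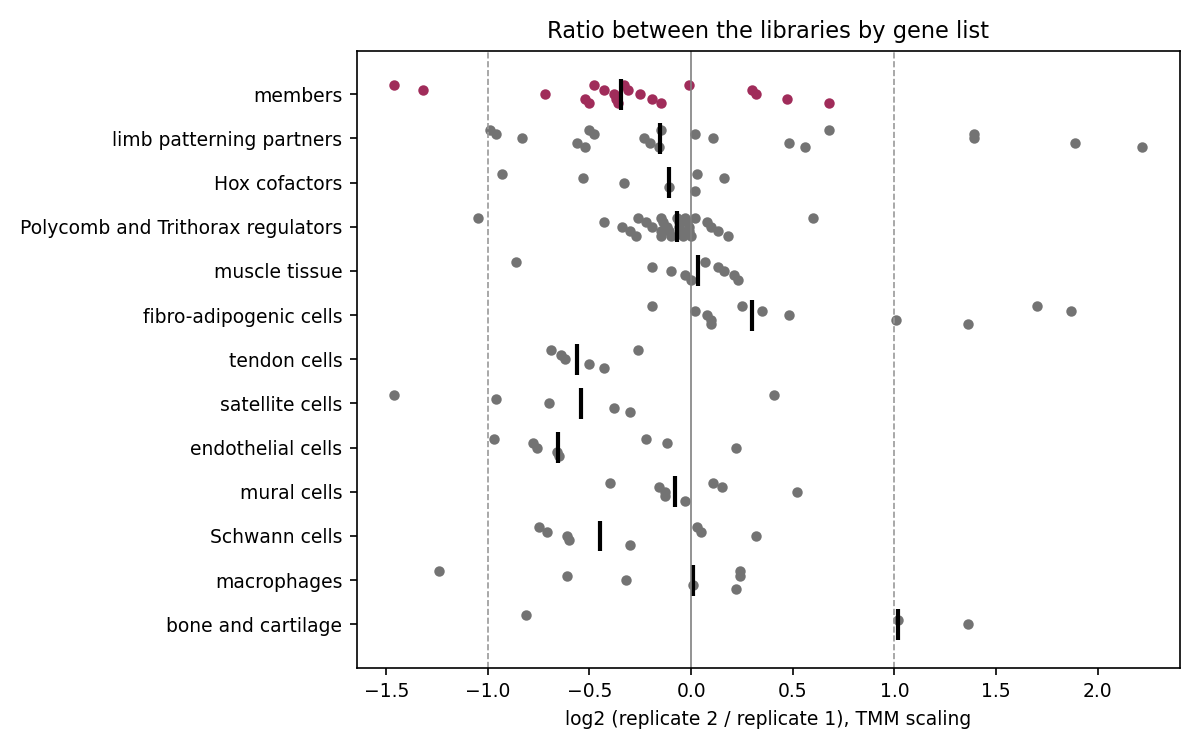
Log2 ratio of replicate 2 over replicate 1 (TMM-scaled) for each gene with enough counts, 1 row a list, with the members in the top row; black bars are medians, dashed lines mark 2-fold, and Irx5, at 0 counts in replicate 1, is not drawn. The members have a median of -0.35, tendon markers -0.56 and fibro-adipogenic markers 0.30.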

How the data were processed

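Total RNA-seq of gastrocnemius was measured in 2 libraries. Expected counts and TPM per gene and per transcript were deposited by the authors in tables with the column names of RSEM, per the file headers, and estimated counts and TPM per transcript in tables with those of kallisto, summed per gene here. The build was mm10 with GENCODE M21, per the deposited notes, and the sources used here do not name the aligner, the versions or the strand setting. Reads of both parental genomes were assigned to this 1 annotation, and the effect of that on the members was not tested.

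Expected counts were rounded. Ratios were computed with edgeR 4.0.16 (R 4.3.3) as differences of log2 CPM with TMM factors and a prior count of 2, for genes whose counts summed to 50 or more, and DESeq2 1.42.0 gave alternative size factors. The 95% intervals of ratios come from the exact binomial distribution of 1 library's counts given the sum of both, corrected for TMM-adjusted depth. Level differences between libraries have no replicate check. The ratio script was tested on simulated data. Python 3.11.15 with pandas 2.3.3, scipy 1.17.1 and matplotlib 3.10.9 did the rest.

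The members, gene lists and settings were chosen with earlier results of these data known. Full values were given for members at or above 1 TPM in both libraries, for Pitx1, Tbx4 and Tbx5 and for members at least 2-fold apart, with ranges or counts for the others. Of the other lists, up to 3 top genes and those 2-fold apart were eligible. Homeobox stretches were located by translating coding sequences of GENCODE M21 transcripts, and promoter windows came from RefSeq. Values or sequences of some of these genes are not reported here.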

Additional observations from a re-analysis of the deposited data

How the results depend on the processing

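No paired analysis was possible because the labels give 1 group only. Without replicate 1 or without replicate 2 the number of members at or above 1 TPM was 13 and 15, levels and shares take the values of the remaining library given above, and ratios have no value. At minimums of 0.5, 0.1 and 5 TPM, 20, 24 and 4 members passed. On protein_coding transcripts alone, an alternative added after seeing the data, 13 members passed. With kallisto TPM 18 members passed 1 TPM, and with posterior mean TPM 14 did. Kallisto gave mean sums of 33.6 TPM for Hoxa, 63.0 for Hoxc and 47.5 for Hoxd, levels of 0.304 for Pitx1, 0.652 for Tbx4 and 0.0554 for Tbx5, shares of 4.97%, 29.5% and 62.4% for groups 1 to 4, 5 to 8 and 9 to 11, and 91.05% of TPM on coding transcripts. Posterior mean TPM gave 1.755 for Hoxb, 0.22 for Pitx1 and 0.125 for Tbx5, and shares of 5.81%, 26.1% and 64.7% for the same groups, for which expected counts gave 4.98%, 27.4% and 64.4%. TPM rescaled over nuclear protein-coding genes gave 48.04, 2.45, 108.5 and 65.5 for Hoxa, Hoxb, Hoxc and Hoxd, and 0.302, 1.13 and 0.0760 for Pitx1, Tbx4 and Tbx5. The median log2 ratio was -0.46 as a ratio of TPM and -0.57 under spike-in totals, and between -0.38 and -0.31 under the others. With a minimum of 10 counts 5 members were at least 2-fold lower, and with none 7 were lower and 1 higher. Hoxa11 and Hoxa13 were at least 2-fold lower under every scaling and count minimum tried. The cause of these shifts was not tested. Members with summed counts under 50, all Hoxb genes, Pitx1 and Tbx5 among them, are not in the counts and medians of ratios, and the intervals of their count ratios are wide: 1.44-fold to 27.5-fold lower for Hoxb5 and for Hoxb9, and 1.05-fold to 7.43-fold lower for Hoxb7.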

Other observations

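Irx5 was 1 of 13 genes with no counts in 1 library and at least 50 in the other, and 4 of the 13 have a protein_coding transcript. Ighg3, an immunoglobulin constant region gene, had 84 and 0 counts, and Kap, a gene known from kidney, had 0 and 55 counts. These 3 genes were singled out after their values were seen.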
